A study of Mus musculus with 160 samples.

Results

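The genes described here belong to the killing granules of lymphocytes and to innate lymphoid cells. They are Gzma, Gzmb, Prf1, Nkg7, Cd160, Zbtb16, Eomes, Rora, Il1rl1 and Klrb1c, 10 of the 23420 gene rows measured in 160 single mouse cells by RNA-seq. They were chosen by their measured levels in these same cells, across the groups and within day 21, so those levels are given as a description. Within the last time point, Gzma was set beside Gzmb by the level of Gata2, with a cut at 31 TPM, and by Cd3g.

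All cells descended from C57BL/6 mouse pluripotent stem cells in which a doxycycline-inducible cassette of the transcription factors Runx1 and Hoxa9, joined by a p2a peptide, sat in the Rosa26 locus. The labels write ESC/iPSC, and the methods describe clones selected with hygromycin B. Every group had received doxycycline, so no group lacked the 2 factors. The 65 induced hemogenic endothelial cells (iHECs) were sorted as CD31+CD41lowCD45-c-kit+CD201high. The induced hematopoietic progenitor cells (iHPCs) had then matured on OP9-DL1 stroma, a feeder line that presents a Notch ligand, in medium with doxycycline and hematopoietic cytokines. They comprised 21 cells of day 14, 18 cells of day 17 and 56 cells of day 21, which are 3, 6 and 10 days of maturation. Day-14 and day-17 cells were CD45+ and negative for lineage antigens that included CD2, CD3, CD4, CD8 and FcεRIα. Day-21 cells were Ter119-CD45+c-kit+CD127+, a gate with neither CD3 nor FcεRIα in it, so that day and gate cannot be told apart.

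Cytotoxic lymphocytes store perforin, encoded by Prf1, and granzymes in secretory granules. On contact with a target cell perforin opens the membrane, and the granzymes, which are serine proteases, enter and cleave proteins that lead to death of the cell. Granzyme B, the product of Gzmb, cuts after aspartate and can activate caspases, whereas granzyme A, the product of Gzma, cuts after basic residues. Mast cells and basophils hold granules of related design, and several mast cell proteases, among them Cma1, Mcpt1 and Mcpt4, are encoded in the same gene cluster as granzyme B.

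The level of a gene is given as TPM, a share of the transcripts of a cell that is scaled by transcript length, and as the mean of log2(TPM + 1) ± SD between cells. The share of cells above 1 TPM is given with its exact Clopper-Pearson 95% interval, which covers counting error only. Nothing in the labels ties a cell to an animal, culture or experiment, so each group was 1 sample of cells and no test between groups was possible. The read depth of the cells is unknown. A median iHEC had 4926 genes above 1 TPM, against 8200 for a day-14 cell, 8101 for a day-17 cell and 6695.5 for a day-21 cell. For 9674 genes detected in over 30 cells, mean log2(TPM + 1) differed by a median of 0.93 between iHECs and day 14, of 0.28 over the step to day 17 and of -0.74 over the step to day 21. A gene was counted as past the fold where its difference, relative to that median, was above 1 or below -1. Gzma, Gzmb and Nkg7 passed the filter on detection, and the remaining 7 members were too seldom above 1 TPM to pass it. The shares of all genes given below cover genes that passed it, so they are not a like set for those 7. Gzma and Gzmb passed it through their day-21 cells.

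The granzymes appeared late. Gzma was at 0 TPM in every iHEC and every day-14 cell, which allows shares of up to 4.62% and 14.3%. At day 17 it was above 1 TPM in 1 of 18 cells, at 35.8 TPM. At day 21 it was above 1 TPM in 40 of 56 cells (71.4%, interval 57.8 to 82.7), with a median of 11.8 TPM and a highest value of 14617 TPM. Gzmb followed the same order and was likewise at 0 TPM in all iHECs and day-14 cells. Gzmb passed 1 TPM in 1 day-17 cell, at 6.04 TPM, and in 54 of 56 day-21 cells (96.4%, interval 87.7 to 99.6). At day 21 no cell was at 0 TPM for Gzmb, the lowest value being 0.806 TPM, the median 177 TPM and the highest 32382 TPM. The day-17 cell with Gzma and the day-17 cell with Gzmb were different cells.

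The mean log2 level of Gzma was 0.29 ± 1.23 at day 17 and 5.06 ± 4.71 at day 21, a difference of 4.77, and that of Gzmb was 0.16 ± 0.66 and 8.47 ± 4.57, a difference of 8.32. The spread between day-21 cells was nearly as large as the mean level for Gzma, so that a single mean describes few of these cells. From day 17 to day 21, 10.3% of the genes tested were higher by the fold relative to the median difference and 13.1% were lower. Of the 10 members, 6 were higher by that measure and none was lower. The genes tested include 3 of the 10, Gzma, Gzmb and Nkg7, and all 3 were higher. Because the median difference was -0.74, a gene near 0 in both groups already gains from the subtraction. Without it, 3 members were higher by the fold (Gzma, Gzmb and Nkg7) and 1 was lower (Eomes, at -1.25), while Zbtb16 was at 0.48, Il1rl1 at 0.73 and Cd160 at 0.38.

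Nkg7 and Prf1, the other 2 genes of the granule itself, took different courses. Nkg7, which encodes a membrane protein of cytotoxic granules, passed 1 TPM in 1 iHEC (12.5 TPM), 5 of 21 day-14 cells, 12 of 18 day-17 cells and 48 of 56 day-21 cells. These shares were 1.54% (interval 0.0389 to 8.28), 23.8% (8.22 to 47.2), 66.7% (40.99 to 86.7) and 85.7% (73.8 to 93.6). Its mean log2 level was 0.06 ± 0.47, 0.99 ± 1.95, 3.42 ± 2.76 and 6.55 ± 2.98 in that order. Nkg7 was thus listed at day 14, when both granzymes were at 0 TPM in every cell. From day 14 to day 17, where 9.03% of genes were higher by the fold and 7.09% lower, it was the member past the fold, with a difference of 2.44 (2.16 relative to the median). The highest value was 95.4 TPM at day 14, 124 TPM at day 17 and 1653 TPM at day 21.

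Perforin transcripts were nearly missing from the cells that held the granzymes. Prf1 was above 1 TPM in no iHEC, 2 day-14 cells (3.80 and 1.95 TPM), 3 day-17 cells (22.9, 20.2 and 7.51 TPM) and 1 day-21 cell (13.5 TPM). The day-21 share was 1.79% (interval 0.0452 to 9.55). That 1 day-21 cell had Gzma at 0 TPM, so no day-21 cell was above 1 TPM for both Prf1 and Gzma. Among the 3 day-17 cells with Prf1, all were above 1 TPM for Cd160 and 2 for Eomes.

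**Figure D1:**
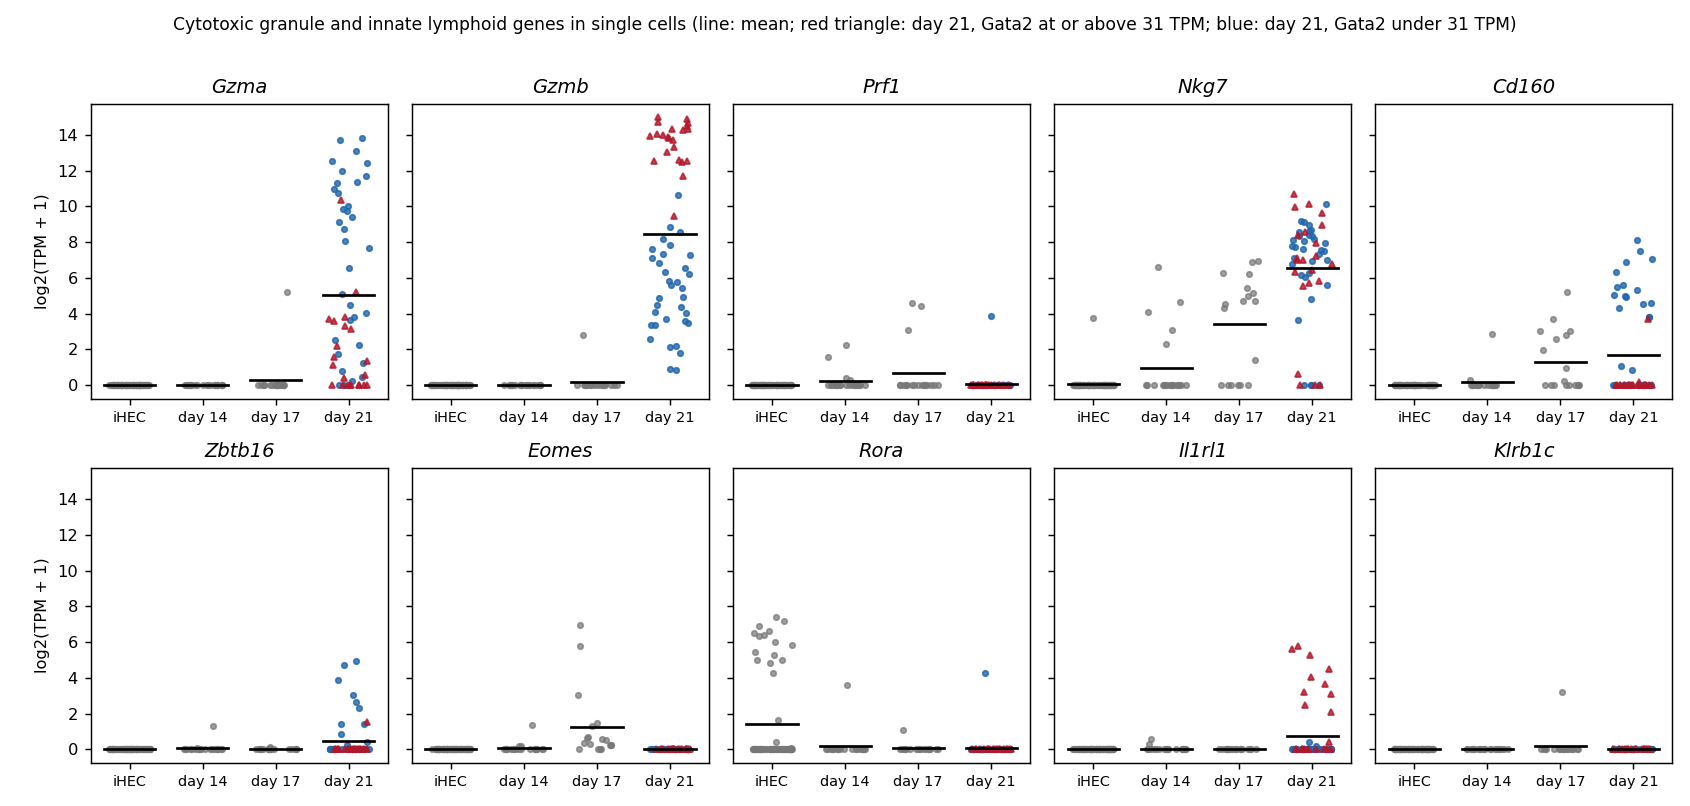
Each point is 1 cell, and each panel is 1 of the 10 genes, with the 4 groups along the horizontal axis, log2(TPM + 1) on the vertical axis and a line at the group mean, and day-21 cells coloured by a Gata2 cut at 31 TPM. Gzma and Gzmb leave the zero line at day 21, Nkg7 climbs over the 4 groups from 0.06 to 6.55, Eomes has values above 1 TPM mainly at day 17, and Rora mainly in iHECs.

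The receptor Cd160 was listed at day 17 and day 21, and the transcription factor Eomes mainly at day 17. Cd160, which encodes a receptor of natural killer (NK) cells and of some T and innate lymphoid cells, was at 0 TPM in all iHECs and above 1 TPM in 1 of 21 day-14 cells. At day 17 it was above 1 TPM in 7 of 18 cells (38.9%, interval 17.3 to 64.3), between 2.89 and 36.6 TPM, and at day 21 in 18 of 56 cells (32.1%, interval 20.3 to 45.96), between 1.10 and 282 TPM. The intervals of the shares at day 17 and day 21 overlapped widely.

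Eomes, a T-box factor of NK cells and memory T cells, was above 1 TPM in 1 day-14 cell (1.62 TPM) and in 5 of 18 day-17 cells (27.8%, interval 9.69 to 53.5). The 5 day-17 values were 122, 53.8, 7.21, 1.73 and 1.52 TPM, and 14 of the 18 cells were above 0 TPM. At day 21 Eomes was at 0 TPM in all 56 cells, which allows a share of up to 5.36%. The 2 days also differed in gate. Relative to the median, the difference in mean log2 level from day 14 to day 17 was 0.89 for Eomes and 0.88 for Cd160, just under the fold, and without subtracting the median both were past it, at 1.16 each.

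Within day 17 these genes fell on overlapping sets of cells. The cell with the highest Eomes (122 TPM, cell 15) also listed Prf1 at 7.51 TPM and Cd160 at 6.10 TPM. Cell 10 listed Prf1 at 20.2 TPM, Cd160 at 12.2 TPM and Eomes at 1.73 TPM, and cell 9 listed Eomes at 53.8 TPM and Cd160 at 7.01 TPM. Neither granzyme was above 1 TPM in the 3 day-17 cells with Prf1 or the 5 with Eomes. Ptcra, which encodes the partner chain of the pre-T cell receptor, was above 1 TPM in 13 of 18 day-17 cells. It was listed in 11 of the 12 cells with Nkg7 and in 4 of the 7 with Cd160.

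Klrb1c was rare in every group, and Rora was rare after the iHEC stage. Klrb1c, which encodes the NK1.1 antigen, was above 1 TPM in 1 of the 160 cells, a day-17 cell at 8.34 TPM. Rora, a nuclear receptor needed for group 2 innate lymphoid cells, was listed above 1 TPM by 16 of 65 iHECs (24.6%, interval 14.8 to 36.9), between 2.07 and 170 TPM with a median of 60.1 TPM. Later it passed 1 TPM in 1 cell each at day 14 (11.2 TPM), day 17 (1.16 TPM) and day 21 (18.5 TPM). Its mean log2 level was 1.40 ± 2.55 in iHECs and 0.17 ± 0.79 at day 14, a difference of -1.23 (-2.16 relative to the median), where 24.4% of genes were lower by the fold and 27.3% higher. Rora was the member past the fold in that comparison.

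The iHECs with Rora listed no granzyme, Cd160, Zbtb16 or Il1rl1 above 1 TPM, since none of the 65 iHECs did. Their median number of genes above 1 TPM was 5789.5, against 4776 in the 49 iHECs without Rora, and the part of that gap in the result was not tested. Ets1, a factor of endothelial and lymphoid cells, was above 1 TPM in 16 of 16 and 44 of 49, and Id2, an inhibitor of E proteins, in 12 of 16 and 31 of 49. Cdh5, which encodes the endothelial cadherin, had a median of 75.02 TPM with Rora and 53.8 TPM without.

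Zbtb16 and Il1rl1 belonged to day 21. Zbtb16 encodes PLZF, the factor of innate-like T cells and of innate lymphoid precursors. It was above 1 TPM in 1 day-14 cell (1.503 TPM) and in 9 of 56 day-21 cells (16.1%, interval 7.62 to 28.3), at up to 30.3 TPM. Il1rl1, which encodes the receptor for interleukin-33, was above 1 TPM in no cell before day 21 and in 10 of 56 at day 21 (17.9%, interval 8.91 to 30.4), at up to 53.7 TPM. A median cell held 0 of the 10 members above 1 TPM among iHECs and among day-14 cells, 2 among day-17 cells and 3 among day-21 cells.

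At day 21 the granzymes divided by Gata2, a factor of hematopoietic progenitors and mast cells. The cut at 31 TPM left 22 Gata2-high cells and 34 Gata2-low cells. The highest value under the cut was 9.18 TPM and the lowest over it 66.0 TPM, and no cell lay within a factor of 2 of the cut. The 2 classes had close medians of genes above 1 TPM, 6665.5 and 6769.5, and the median difference over all genes tested was 0. The genes tested include some at 0 TPM in both classes, such as Cdh5. These count as 0 in that median and cannot pass the fold in the shares of all genes. Scaling by size factors put the median difference at 0.06.

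Gzmb was the granzyme of the Gata2-high cells. Its lowest, median and highest values were 702, 15152 and 32382 TPM in the 22 Gata2-high cells and 0.806, 35.4 and 1593 TPM in the 34 Gata2-low cells. The classes overlapped in 1 pair of cells, since Gata2-low cell 42 at 1593 TPM lay above Gata2-high cell 1 at 702 TPM. The mean log2 level was 13.53 ± 1.28 against 5.20 ± 2.39, a difference of 8.33. In the Gata2-high class the SD of 1.28 for Gzmb stood beside 2.52 for Gzma and 3.33 for Nkg7.

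Gzma lay the other way. Its lowest, median and highest values were 0, 0.846 and 1290 TPM in Gata2-high cells and 0, 351 and 14617 TPM in Gata2-low cells. It was above 1 TPM in 11 of 22 Gata2-high cells (50%, interval 28.2 to 71.8) and in 29 of 34 Gata2-low cells (85.3%, interval 68.9 to 95.05). The mean log2 level was 1.83 ± 2.52 against 7.15 ± 4.64, a difference of -5.32, and the classes overlapped over most of their range. After the highest Gata2-high value of 1290 TPM the next was 35.7 TPM, whereas 19 of 34 Gata2-low cells were above 100 TPM and 12 above 1000 TPM.

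By the Gata2 split, 13% of the genes tested were higher in Gata2-high cells by the fold and 10.2% lower. Of the 10 members, Gzmb and Il1rl1 were higher and Gzma and Cd160 were lower. Because Gata2 and the granzymes chose the split and the members, these counts describe the cells and nothing is read from them.

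**Figure D2:**
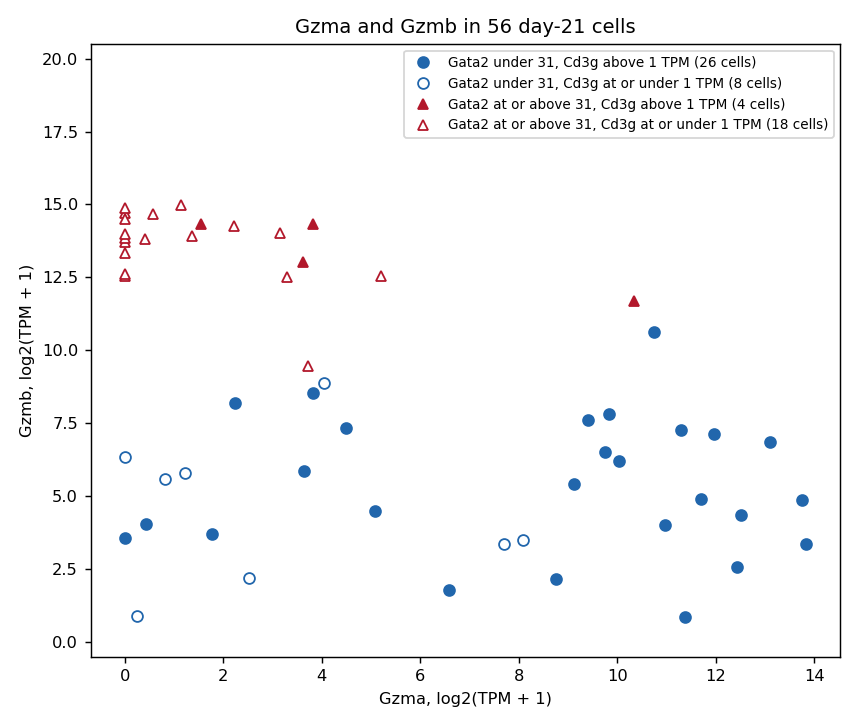
Each point is 1 of the 56 day-21 cells, with log2(TPM + 1) of Gzma on the horizontal and of Gzmb on the vertical axis, coloured by Gata2 class and marked by Cd3g. The 22 Gata2-high cells form a band at the top with Gzmb at 702 TPM or more, and the 34 Gata2-low cells spread along Gzma from 0 to 14617 TPM.

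Detection above 1 TPM did not separate the granzymes, but the level did. Both granzymes were above 1 TPM in 39 of 56 cells (69.6%), in 11 Gata2-high and 28 Gata2-low cells, while 1 cell listed Gzma alone, 15 Gzmb alone and 1 neither. Above 10 TPM both were listed in 24 cells, above 100 TPM in 7 and above 1000 TPM in 2. Gzmb exceeded Gzma on the TPM scale in all 22 Gata2-high cells. Among the 34 Gata2-low cells Gzma exceeded Gzmb in 22 and Gzmb exceeded Gzma in 12.

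Low values in the other class were of like size for many genes. The mean TPM of Gata2-low cells, as a percent of that of Gata2-high cells, was 0.837% for Gzmb, 0.341% for Mcpt4, 0.237% for Mcpt1 and 0.201% for Cma1, the last 3 being mast cell proteases. In the other direction, the mean of Gata2-high cells as a percent of that of Gata2-low cells was 3.08% for Gzma, 2.13% for Tcf7, 1.299% for Lck and 0.168% for Ptcra. The percent was not small for every gene, since Cpa3, mast cell carboxypeptidase, stood at 10.2% and Rag2, a recombinase subunit, at 6.58%. Without the 2 cells with both granzymes above 1000 TPM, a choice made after the values were seen, it was 0.527% for Gzmb and 0.226% for Gzma. The source of these low values was not tested, so a value of a few TPM is not read here as expression.

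**Figure D3:**
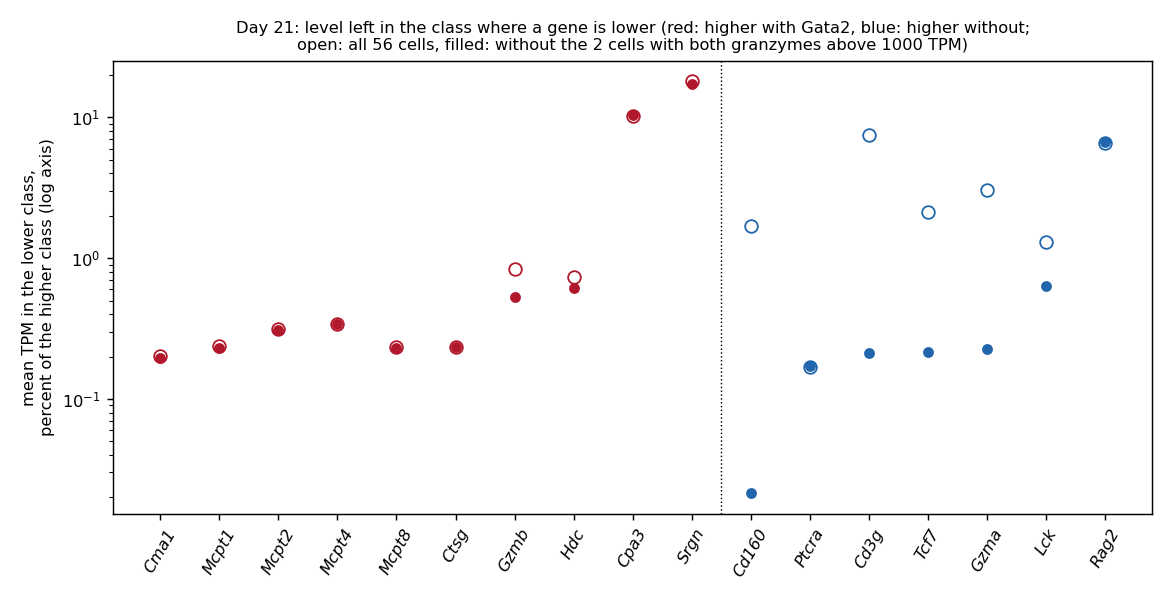
Each point gives, for 1 gene, the mean TPM in the day-21 class where it is lower as a percent of the mean in the class where it is higher, on a log axis, for all 56 cells (open) and without the 2 cells that listed both granzymes above 1000 TPM (filled). Gzma moves from 3.08% to 0.226% without those cells, Gzmb from 0.837% to 0.527%, and Cpa3 remains near 10%.

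The 2 cells with both granzymes above 1000 TPM differed from each other. Cell 27 was Gata2-high (92.9 TPM) with Gzma at 1290 TPM and Gzmb at 3273 TPM. It listed mast cell protease Mcpt4 at 6014 TPM and Cpa3 at 7198 TPM, and with them the T lymphoid genes Cd3g at 691 TPM, Lck at 111 TPM and Tcf7 at 26.4 TPM. Cell 42 was Gata2-low (0 TPM) with Gzma at 1716 TPM and Gzmb at 1593 TPM. It listed Mcpt4 at 2.69 TPM and Cd3g at 6.78 TPM, with Cd7, a receptor of early lymphoid and NK cells, at 4834 TPM, the adaptor Tyrobp at 7321 TPM and the kinase Lck at 251.3 TPM. Cell 27 thus held high values of mast cell genes and of some T lymphoid genes, while Ptcra and Rag2, also T lymphoid, were at 0 TPM. Cell 42 held high values of neither Mcpt4 nor Cd3g. Both had few genes above 1 TPM for day 21, 3932 and 4104 against a median of 6695.5. Whether a well held more than 1 cell was not tested. Without both cells the Gata2 differences were 8.58 for Gzmb and -5.61 for Gzma.

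The split by Cd3g, which encodes the gamma chain of the CD3 complex, gave the opposite picture for the granzymes over all day-21 cells. Cd3g was above 1 TPM in 30 cells, here called Cd3g-listed, from 2.46 TPM upwards, and was at most 0.815 TPM in the other 26. Gzma was above 1 TPM in 28 of 30 Cd3g-listed cells, with a mean log2 level of 7.93 ± 4.36 against 1.76 in the other cells. Gzmb had a mean log2 level of 6.45 ± 3.54 against 10.80, a difference of -4.35. By this split 5.9% of the genes tested were higher in Cd3g-listed cells and 10.5% lower, and of the members Gzma and Cd160 were higher and Gzmb lower. Of the 30 Cd3g-listed cells, 26 were Gata2-low and 4 Gata2-high, so that the split by Cd3g is largely the split by Gata2.

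Within the Gata2-low class the difference in Gzmb by Cd3g changed sign and that in Gzma did not. Gzma had a median of 882 TPM and a mean log2 level of 8.41 ± 4.31 in the 26 Cd3g-listed cells, and 3.05 TPM and 3.08 ± 3.24 in the 8 others, whose highest value was 270 TPM. The cells above 1 TPM for Gzma were 24 of 26 (92.3%, interval 74.9 to 99.1) and 5 of 8. Gzmb had medians of 35.4 and 28.9 TPM and means of 5.39 ± 2.36 and 4.57 ± 2.56, a difference of 0.82 that is smaller than either SD. The values of Gzmb overlapped almost wholly between those 2 sets of cells. In this class 6.3% of the genes tested were higher in Cd3g-listed cells and 10% lower.

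Nkg7 did not follow Gata2. Its lowest, median and highest values were 0, 128 and 1653 TPM in Gata2-high cells and 0, 192 and 1113 TPM in Gata2-low cells, with means of 6.36 ± 3.33 and 6.67 ± 2.78. The difference of -0.31 was far within the spread between cells. The cells above 1 TPM were 18 of 22 and 30 of 34. Within the Gata2-low class its mean log2 level was 7.04 ± 2.37 in the 26 Cd3g-listed cells and 5.46 ± 3.79 in the other 8, a difference of 1.58. Srgn, the proteoglycan core to which granule proteases bind, was above 1 TPM in all 56 day-21 cells, with or without Nkg7.

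Cd160 went with Gzma and Cd3g. It was above 1 TPM in 17 of 34 Gata2-low cells and in 1 of 22 Gata2-high cells, which was cell 27 (11.99 TPM). All 18 cells with Cd160 were also above 1 TPM for Gzma and for Cd3g, and 16 of them had Gzma above 100 TPM. In Gata2-low cells its mean log2 level was 3.44 ± 2.88 where Cd3g was listed, and it was above 1 TPM in none of the 8 others, which allows up to 37.5%.

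Zbtb16 lay mostly in the same class. It was above 1 TPM in 8 of 34 Gata2-low cells and 1 of 22 Gata2-high cells (1.85 TPM), and in the difference of means (-0.70) it stayed within the fold. The highest values were 30.3, 25.03 and 13.9 TPM in cells 43, 41 and 21. All 9 cells with Zbtb16 had Gzma above 1 TPM, 8 had Gata3 and 5 had Cd160. In the whole Gata2-low class Gzma was above 1 TPM in 29 of 34 cells, Cd160 in 17 of 34 and Gata3 in most. These counts are thus close to those of the class.

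Il1rl1 was the member confined, above 1 TPM, to the Gata2-high class of these cells. It was above 1 TPM in 10 of 22 (45.5%, interval 24.4 to 67.8), between 3.32 and 53.7 TPM, and in 0 of 34 Gata2-low cells, which allows up to 8.82% and where the highest value was 0.312 TPM. All 10 cells with Il1rl1 were above 1 TPM for Il4, which encodes interleukin-4, and 0 of 10 for Gata3, a factor of T cells and of group 2 innate lymphoid cells. In the whole Gata2-high class Il4 was above 1 TPM in 21 of 22 cells and Gata3 in 3 of 22, so that these counts are close to those of the class. The mean log2 level of Il1rl1 was 1.83 ± 2.19 in Gata2-high cells. Prf1 and Rora were each above 1 TPM in 1 Gata2-low cell, in cells 5 and 22, and Eomes and Klrb1c were at 0 TPM in both classes.

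**Figure D4:**
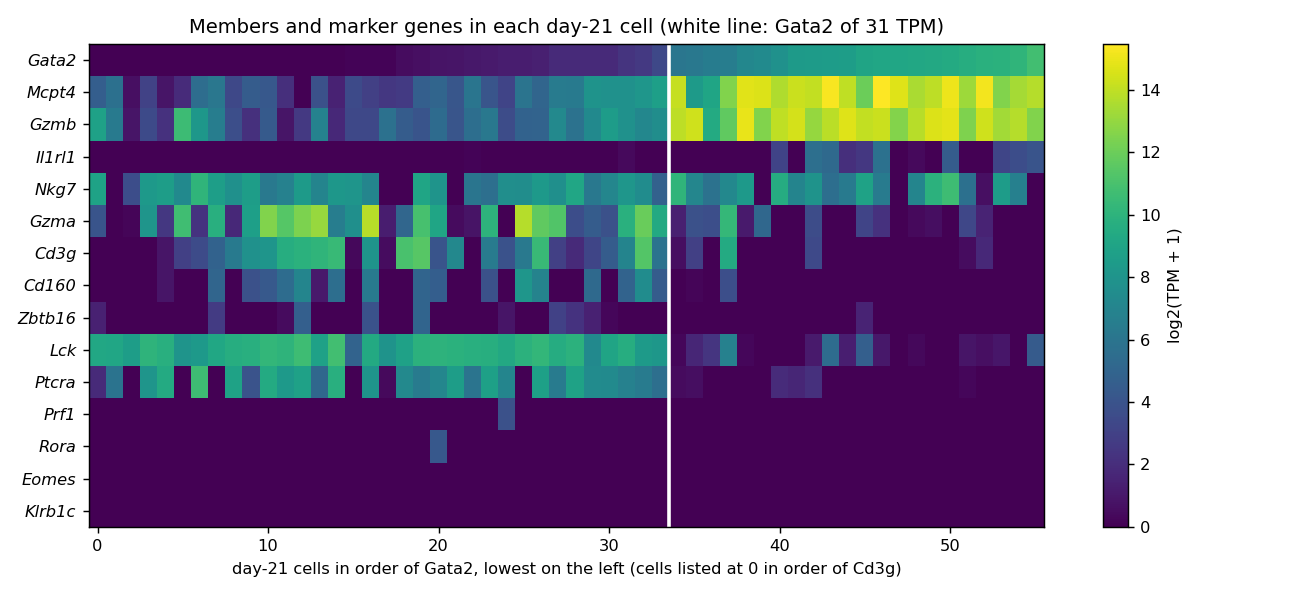
Each column is 1 of the 56 day-21 cells, ordered by Gata2 from left to right with a white line at 31 TPM, and each row is a gene, shaded by log2(TPM + 1). The 22 Gata2-high cells share high Gzmb and the 10 values of Il1rl1, and Cd160 is shaded in 17 of the 34 Gata2-low cells, among those with Gzma and Cd3g.

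Across the 56 day-21 cells, the genes with the pattern most like Gzma by Spearman correlation, among 9277 genes above 1 TPM in more than 10 of these cells, were Cd3g (0.75), Cd160 (0.74), Skp1a (0.69), Tcf7 (0.68), Dnajc15 (0.66), Crip1 (0.66), Ly6d (0.65) and Gimap9 (0.64). Those most like Gzmb were Cma1 (0.89), Mcpt4 (0.89), Ctla2a (0.85), Mcpt1 (0.83), Cfp (0.82), Hdc (0.82), Csf2rb (0.82) and Gata2 (0.81). The points are cells prepared with the same kits and of unknown depth, and they fall into 2 classes, so these values carry no p. Gzma correlated with the number of genes above 1 TPM at -0.41 and Gzmb at 0.09. The correlation of Gzma with Gzmb was -0.50 over all 56 cells.

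The likeness of Gzma held partly within a class. In the 34 Gata2-low cells its correlation was 0.72 with Cd160, 0.67 with Skp1a, 0.60 with Cd3g, 0.59 with Gimap9 and 0.56 with Tcf7, which encodes TCF-1, a factor of early T cells. It was 0.29 with Lck, -0.02 with Ptcra and 0.02 with Gzmb. With the number of genes above 1 TPM it was -0.39 in the same cells, and the part of that number in these values was not tested. The correlation of Gzma with Gzmb was thus near 0 within this class and -0.34 in the 22 Gata2-high cells, against the pooled -0.50.

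For Gzmb the values with Ctla2a, Mcpt4, Cma1, Gata2 and Mcpt1 were lower within a class than pooled, while that with Nkg7 was 0.03 pooled. In the 22 Gata2-high cells its correlation was 0.46 with Ctla2a, 0.46 with Nkg7, 0.39 with Mcpt4, 0.38 with Cma1, -0.02 with Gata2 and -0.20 with Mcpt1. In the 34 Gata2-low cells, where all of these proteases were low, it was 0.68 with Cma1, 0.67 with Mcpt4 and 0.65 with Mcpt1 but -0.15 with Cpa3.

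In the GRCm38 genome with GENCODE M21 genes, Gzmb lies on chromosome 14 at 56258838-56262260 on the minus strand. It is the last of 14 protease genes chosen from this cluster, which span 320.8 kb. Their order is Cma1, Mcpt1, Mcpt9, Mcpt2, Mcpt4, Mcpt8, Ctsg, Gzme, Gzmd, Gzmg, Gzmn, Gzmf, Gzmc and Gzmb. The interval was not searched for further genes, so the 14 are not a full list of the cluster. In Gata2-high cells the mean log2 level was 11.998 for Cma1, 11.95 for Mcpt1, 8.84 for Mcpt2, 13.53 for Mcpt4, 7.84 for Mcpt8, 9.53 for Ctsg, which encodes cathepsin G, and 13.53 for Gzmb. Gzmc, Gzme, Gzmf, Gzmg and Gzmn, which lie between Ctsg and Gzmb, were at 0 TPM in all 56 day-21 cells. Gzmd was above 1 TPM in 1 cell (4.69 TPM) and Mcpt9 in 1 cell (6.31 TPM). High values thus stood at both ends of these 14 genes, with Gzmb 156 kb from Ctsg and 24.2 kb from Gzmc, the nearest of the 14, at 0 TPM. Some members of this family are near copies of each other, and how the counting shared their reads is not given in the sources used here.

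**Figure D5:**
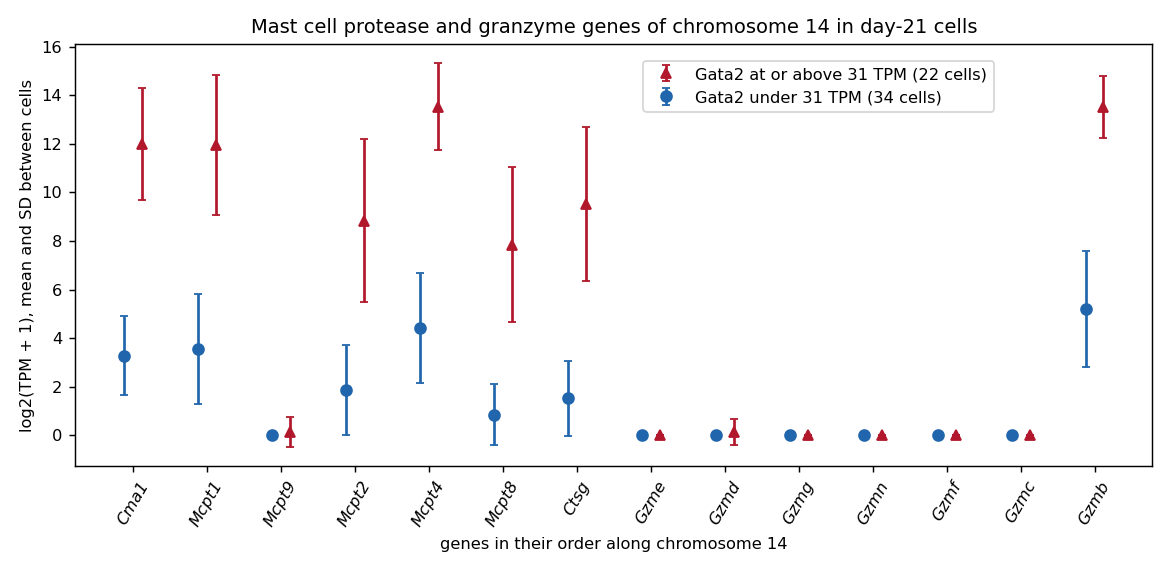
The 14 chosen protease genes are drawn in chromosome order along the horizontal axis, with the mean log2(TPM + 1) ± SD of Gata2-high and of Gata2-low day-21 cells on the vertical axis. In Gata2-high cells Cma1 to Ctsg, except Mcpt9, and Gzmb stand between 7.84 and 13.53, and the 6 granzyme genes between them stand at or near 0.

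Gzma lies apart on chromosome 13 at 113093825-113100981, minus strand, 70.6 kb from Gzmk, which was at 0 TPM in all groups. The other members are Prf1 at chromosome 10, 61297833-61304680 (plus), Nkg7 at chromosome 7, 43437073-43438249 (plus), Cd160 at chromosome 3, 96798763-96829351 (minus), Zbtb16 at chromosome 9, 48654297-48836222 (minus), Eomes at chromosome 9, 118478212-118486132 (plus), Rora at chromosome 9, 68653786-69388246 (plus), Il1rl1 at chromosome 1, 40429570-40465415 (plus), and Klrb1c at chromosome 6, 128778485-128789215 (minus).

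The 250 bases before the RefSeq start (GRCm38.p6) are shown for the 2 granzymes that divided the day-21 cells and for Mcpt4, the cluster gene with the same mean level as Gzmb in Gata2-high cells. All 3 are on the minus strand and read 5′ to 3′, from chr13:113100982-113101231, chr14:56262335-56262584 and chr14:56062311-56062560 in that order. Capitals mark matches, on either strand, to GATAA (the core read by GATA factors), TGTGGT (the core read by Runx factors) and TGANTCA (the core read by AP-1).
Gzma: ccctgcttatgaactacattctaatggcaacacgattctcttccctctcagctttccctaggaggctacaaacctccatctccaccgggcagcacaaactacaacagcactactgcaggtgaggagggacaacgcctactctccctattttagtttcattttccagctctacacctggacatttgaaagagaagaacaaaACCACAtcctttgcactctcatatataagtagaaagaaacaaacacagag
Gzmb: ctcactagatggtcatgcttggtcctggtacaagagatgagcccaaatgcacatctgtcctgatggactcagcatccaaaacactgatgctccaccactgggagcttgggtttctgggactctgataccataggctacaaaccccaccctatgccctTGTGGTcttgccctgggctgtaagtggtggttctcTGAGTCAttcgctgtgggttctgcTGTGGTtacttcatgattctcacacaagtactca
Mcpt4: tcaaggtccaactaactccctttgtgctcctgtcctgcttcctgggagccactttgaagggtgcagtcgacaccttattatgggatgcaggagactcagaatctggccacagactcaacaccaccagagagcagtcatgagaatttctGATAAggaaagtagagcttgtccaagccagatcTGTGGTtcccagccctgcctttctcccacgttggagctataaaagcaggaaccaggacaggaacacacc
Over 32851 RefSeq promoters, 250-base windows held GATAA in 22.6%, TGTGGT in 14.05% and TGANTCA in 6.75%. The Gzma window held 1 TGTGGT, on the opposite strand at -50 to -45 from the start. The Gzmb window held TGTGGT at -93 to -88 and at -34 to -29 and TGANTCA at -58 to -52. For Gzmb the RefSeq window begins at 56262335, whereas the GENCODE gene starts at 56262260 on this strand. Counted from the GENCODE start these sites lie further upstream, and the bases between the 2 starts were not searched. The Mcpt4 window held GATAA at -102 to -98 and TGTGGT at -69 to -64. No 2 of these matches overlapped, apart from TGANTCA, which reads alike on both strands. TGTGGT was thus in all 3 windows and does not tell them apart, and a match here is a description of letters, not of a bound site.

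The remaining genes of the pathway were taken as lists and compared between the Gata2 classes by the difference of mean log2 level, where the median over all genes tested was 0. Of all genes tested, 13% were higher in Gata2-high cells by the fold and 10.2% lower. These shares cover genes that passed the detection filter, whereas the counts below cover every gene of a list. The rest of the granzyme family, 8 genes, had 0 past the fold in either direction, and Gzmm was above 1 TPM in 1 Gata2-high cell (62.3 TPM). Of 8 granule proteins and activators, 5 were higher in Gata2-high cells and 0 lower, with a list median of 1.74 (all genes: 13% higher, 10.2% lower). Srgn was at 12.44 ± 0.64 against 9.96 ± 0.54, a difference larger than the spread, with values from 1584 TPM in the one class and up to 3608 TPM in the other. Ctsc, the peptidase that activates progranzymes, was at 7.52 ± 1.41 against 4.70 ± 2.49, and Cst7, an inhibitor of that step, at 8.74 ± 0.78 against 5.37 ± 2.63. The tetraspanin Cd63 was at 11.26 against 8.58 and Lamp2 at 6.31 against 5.30, both lysosomal membrane proteins.

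Of 8 genes for granule release, Unc13d, the priming factor, was higher (3.82 against 2.56) and none was lower. Of 4 genes for Serpinb protease inhibitors, 3 were higher in Gata2-high cells (Serpinb9, Serpinb6a and Serpinb1a) and 0 lower. Among all genes these shares were 13% and 10.2%. Serpinb9, the inhibitor of granzyme B, was at 3.39 ± 2.59 against 1.66 ± 2.08, a difference smaller than the spread, and Serpinb1a was at 9.92 ± 1.18 against 8.37 ± 0.91. Within the Gata2-low class, Ctsw, a cysteine protease of cytotoxic lymphocytes, was above 1 TPM in 7 of 26 Cd3g-listed cells and 0 of 8 others. A count of 0 in 8 cells allows up to 37.5%, so these shares are not told apart. The activator Ctsc and its inhibitor Cst7 had lower means in those 26 cells than in the 8 others, at 4.27 against 6.11 and 4.82 against 7.14. Each difference was smaller than the SD of that gene over the whole Gata2-low class, given above.

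Before day 21 part of the granule list was already present without granzymes. Srgn passed 1 TPM in 11 of 65 iHECs, 20 of 21 day-14 cells, 18 of 18 day-17 cells and 56 of 56 day-21 cells. Cst7 was above 1 TPM in 3, 16, 14 and 53 cells of these groups. Among the mast cell proteases, Cpa3 was above 1 TPM in 11 of 18 day-17 cells, while Mcpt4 was at 0 TPM in every cell before day 21. In the 12 iHECs with Gata2 at 31 TPM or more, Gzmb was at 0 TPM. All but iHECs 22 and 36 (74.4 and 213.8 TPM) had Gata2 under 66.0 TPM, the lowest value of the day-21 Gata2-high class. Levels of Gata2 were thus mostly not matched between the 2 groups.

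Of 14 death ligands and cytokines, Il4 and Csf2 were higher in Gata2-high cells and 0 were lower. Neither of the 2 passed the detection filter, and 1 of the 14 did, so the 13% of all genes tested is not a like share. Il4 was above 1 TPM in 21 of 22 Gata2-high and 8 of 34 Gata2-low cells, with means of 7.13 ± 1.86 and 1.03 ± 2.002, and Csf2, which encodes GM-CSF, in 13 of 22 and 1 of 34. Il13 was above 1 TPM in 6 of 22 and 0 of 34. Ifng, Il5, Il17a, Il22 and Xcl1, products of cytotoxic and innate lymphoid cells, were at 0 TPM in all 56 day-21 cells.

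Of 13 transcription factors of innate lymphoid cells, Id2 and Ahr were higher in Gata2-high cells, and Nfil3, Gata3, Tcf7 and Ets1 were lower, 2 and 4 of 13 against 13% and 10.2% of all genes. Id2 was at 9.70 ± 1.93 against 6.97 ± 1.76. Gata3 was above 1 TPM in 3 of 22 Gata2-high and 32 of 34 Gata2-low cells, and Tcf7 in 2 of 22 and 26 of 34. Tbx21, the T-box factor of NK cells and type 1 helper cells, was at 0 TPM in all 160 cells.

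Of 21 receptors of NK and innate lymphoid cells, Il18rap, Crlf2, Icos and Tnfrsf9 were higher in Gata2-high cells, and Il12rb2 and Il17rb were lower. These are 4 and 2 of 21, and all of them are among the 7 that passed the detection filter. The 13% and 10.2% of all genes cover only genes that passed it, so the 21 are not a like set. Il17rb, a receptor for interleukin-25, was at 0.28 ± 0.85 against 3.66 ± 2.77, whereas Crlf2, a receptor chain for TSLP, was at 4.68 against 1.77. Ncr1, Klrk1, Klrc1, Klre1, Klrb1b, Klra1, Klra8 and Slamf7 were at 0 TPM in all 56 cells. Of 7 adaptors, Tyrobp, Fcer1g and Hcst were higher in Gata2-high cells, and Sh2d1b1 and Syk were lower (all genes: 13% and 10.2%). Tyrobp, the adaptor of activating NK receptors, was nevertheless above 400 TPM in every day-21 cell, its lowest value being 472 TPM.

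Cell type markers moved with the granzymes, and their counts again stand beside 13% of all genes higher and 10.2% lower. Their part in the granzyme values was not tested. Of 12 mast cell or basophil markers, 8 were higher in Gata2-high cells, with Tpsb2, Tpsab1 and Prss34 at 0 TPM in both classes. The summed level of the 12 ran from 1767 to 117688 TPM (median 52222) in Gata2-high cells and from 83.8 to 4657 TPM (median 1003) in Gata2-low cells. In Gata2-low cells most of this sum was Cpa3, with a mean of 1001 TPM against 62.1 TPM for Mcpt4, 28.7 TPM for Mcpt1 and 16.4 TPM for Cma1. Of 13 T lymphoid markers, 5 were lower in Gata2-high cells and 0 higher, and the summed level ran from 0 to 802 TPM (median 6.92) there and from 70.0 to 4244 TPM (median 1374) in Gata2-low cells. Of 9 NK cell markers, 7 were at 0 TPM in all 56 day-21 cells, and the summed level was above 0 in 2 cells, from Klrd1 at 40.4 TPM in the one and Prf1 at 13.5 TPM in the other. Of 8 markers of group 2 innate lymphoid cells, 2 were higher in Gata2-high cells and 2 lower. The gate required CD127, and its gene Il7r was above 1 TPM in 8 of 22 Gata2-high and 33 of 34 Gata2-low cells, while Kit, the other gate antigen, was above 1 TPM in 21 of 22 and 31 of 34.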

How the data were processed

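The authors sequenced amplified cDNA of single sorted cells, 1 cell per sample, aligned reads to mm10 with HISAT2 2.1.0 and deposited expression in TPM from StringTie 1.3.4 as 1 table. Per the labels' processing notes, SAMtools 0.1.19 was also used. Each column was matched to its cell by title, and 0 columns were left unused. Column sums ran from 988686 to 999108 TPM, and raw counts and depth were not used here. 27 row names look like dates and were left as they are.

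The members and all gene lists were chosen with earlier results of these data known. Genes named are the 10 members, Gata2 and Cd3g, the 8 genes most correlated with each of Gzma and Gzmb at day 21, and genes of 16 fixed lists (132 genes, all found) above 1 TPM in at least 25% of the cells of a group, at most 8 a list. Other genes were named after their values were seen: those at 0 TPM, and those shown for single cells or for small counts.

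Means, shares, intervals and correlations were computed in Python 3.11.15 with pandas 2.3.3, numpy 2.4.6 and SciPy 1.17.1 on log2(TPM + 1), and the scripts were tested on simulated data. No clustering, doublet caller or test was run, since replicates are not established, and cells carry no barcodes to compare. Where a share is 0, the limit is 3 cells of the total. Positions came from GENCODE M21, promoters from RefSeq. Alternatives were other thresholds, pseudocounts, filters, scalings and subsets of cells.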

Additional observations from a re-analysis of the deposited data

How the results depend on the processing

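No paired analysis was possible because each column is 1 cell, the numbers in the titles only name cells, and no test was run. Of 467 values recomputed under another setting, 425 were counted as the same, 41 moved further and 1 reversed. A difference was the same if it moved by less than the spread, and a share if it stayed in its interval. Gene counts were allowed a fixed factor and lists of like genes a fixed overlap. A change of sign was checked only for differences above 1 or below -1. The difference of Gzmb by Cd3g at day 21, -4.35 over all cells, was 0.82 in Gata2-low cells only. The share of day-21 cells with Gzma was 57.1% at a threshold of 5 TPM and 53.6% at 10 TPM, that with Gzmb 100% at 0 TPM and 85.7% at 10 TPM, and that with both granzymes 50% at 5 TPM and 42.9% at 10 TPM. Without the 25% of cells with the fewest genes, 3 of the 8 genes most like Gzma and 5 of the 8 most like Gzmb were shared with the lists given, and with Pearson correlation 5 for Gzmb. With no filter on detection, 4827 genes were higher and 1257 lower from iHECs to day 14, 1641 higher from day 14 to day 17, 273 higher and 3923 lower from day 17 to day 21, and 1601 lower by Cd3g, since genes near 0 take the median difference. The other 26 values that moved were shares or differences of members seen in few cells. Size-factor scaling put the median difference at 1.06, 0.09 and -0.62 for the 3 steps in time. Leaving out the 2 cells with both granzymes above 1000 TPM was chosen after seeing the data.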
